A study of Mus musculus with 2 samples.

Results

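Expression of Notch signalling genes was measured in the part of the mouse aorta labelled prone to atherosclerosis and set against a part labelled resistant. The members are 10 genes, namely the receptors Notch1, Notch2, Notch3 and Notch4, the ligands Jag1, Jag2 and Dll4, and the target genes Hey1, Hey2 and Heyl. They were taken by the gene name on the array: 13 probes carried 1 of these names, out of 41174 gene probes in all, and every one of these probes is described. Notch1, Jag1 and Heyl had 2 probes each, and each of the other 7 genes had 1. Jag2 was not well above background in either pool on either array, which leaves 12 probes of 9 genes with a measured difference, among 22811 genes compared on the whole array.

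All RNA came from apoE-/- mice aged 16 weeks, whose missing apolipoprotein E leads to atherosclerosis; no wild-type group entered the comparison. The prone segment, here called arch, ran from the root through the arch to 2 mm into the thoracic aorta. The resistant segment, here called thoracic, was the following 6 mm. Vessels were perfused with the detergent triton X-100 to strip the endothelium, and for each segment the extracts of the same number of animals, 6 mice (3 males and 3 females), were combined into 1 pool. Each of 2 arrays read both pools at once in different dyes, the arch pool in green on array 1 and in red on array 2. The arrays therefore repeat 1 measurement: each ± below is the SD between arrays (n = 2 arrays, technical), the spread between mice was not measured, and no p-value is given.

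Notch receptors are single-pass membrane proteins that are activated by ligands of the Jagged and Delta-like families on a neighbouring cell. Binding leads to cleavage by ADAM proteases and then by gamma-secretase, and the released intracellular domain enters the nucleus, where it joins the DNA-binding protein RBPJ and Mastermind coactivators. The Hey genes, which encode basic helix-loop-helix repressors, are among its direct targets. In arteries, NOTCH2 and NOTCH3 act in smooth muscle, where JAG1 is the main ligand studied, whereas NOTCH4 and DLL4 are known from endothelium.

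Of the 9 genes compared, each by its brightest probe, Hey1 alone was at least 1.5-fold higher in 1 pool, the arch. Heyl and Notch1 were next in size in the same direction, and the remaining receptors and ligands were close to 0. A second, dimmer Heyl probe was 1.58-fold higher in the arch, beside 1.55-fold for Hey1. Differences are log2 ratios of arch over thoracic, averaged over both arrays. The stricter size rule required a mean difference of 2-fold or more, and 1.5-fold or more on each of the 2 arrays, with no change of direction. By it, 0 members were called in either direction, against 0.473% of all genes called higher in the arch and 0.145% called higher in the thoracic pool. By the lower rule, a mean of at least 1.5-fold with the same direction on both arrays, 1 member (Hey1) was called higher in the arch, where 1.4% of all genes were, and 0 were called higher in the thoracic pool, where 0.456% were. The median over the 9 genes was 0.03, and that over all genes was -0.01. Both arrays gave a value above 0 for 4 of the 9 and below 0 for 3, beside 32.4% and 35.2% of all genes.

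**Figure D1:**
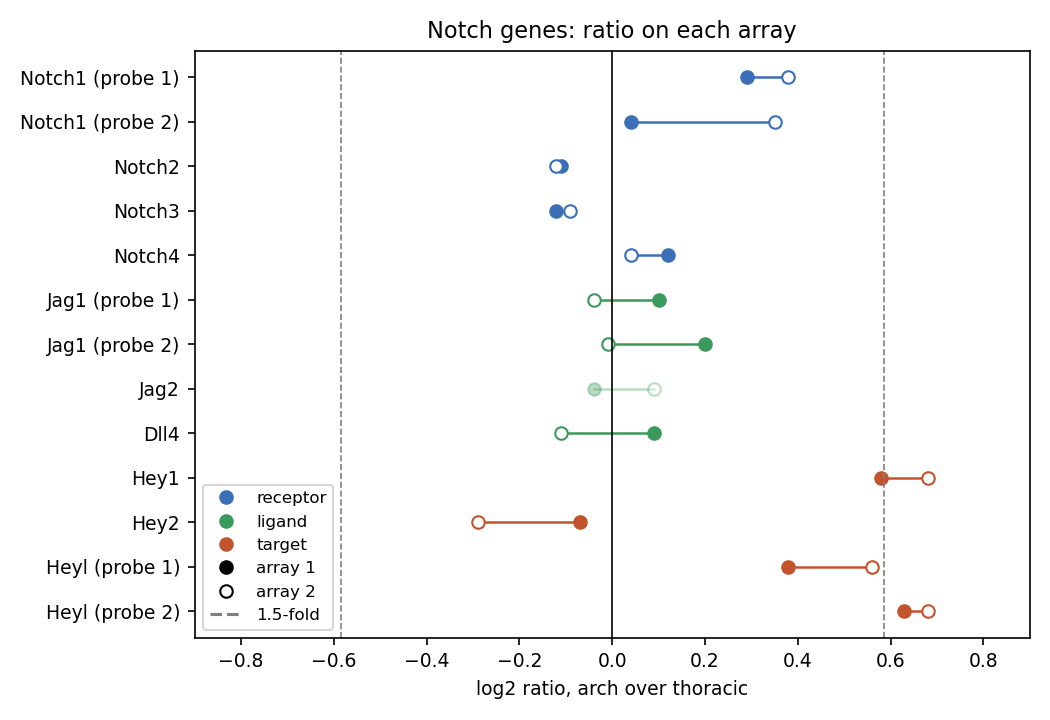
Log2 ratio of arch over thoracic (horizontal axis) for each of the 13 probes, with array 1 as filled and array 2 as open points joined by a line, and colours for receptors, ligands and target genes. Dashed lines mark 1.5-fold. Hey1 (0.58 and 0.68) and both Heyl probes lie farthest to the right, Hey2 lies left of 0 on both arrays, and the faded Jag2 probe was not well above background.

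Hey1, a transcriptional repressor induced by Notch in arterial endothelium and smooth muscle, was higher in the arch pool on both arrays. Its log2 level was 8.98 in the arch and 8.41 in the thoracic pool on array 1, and 9.08 and 8.40 on array 2. The arch levels lay above the thoracic levels on both arrays without overlap, and the thoracic levels differed by far less between arrays than the segments did. The ratio was 0.58 on array 1 and 0.68 on array 2, with a mean of 0.63 ± 0.08, or 1.55-fold. Of all genes compared, 1.57% had a larger difference in either direction. The scanner software's own ratio, which subtracts a fitted background and adds no offset, was 0.65 with an error of 0.18 on array 1 and 0.78 with an error of 0.18 on array 2. Hey1 sits near the 1.5-fold limit (0.585), and it fell under that limit when background was not subtracted (0.53) or when array 2 was left out (0.58). It was above 0 in all 12 settings computed per probe (the main one and 11 alternatives), several of which gave it the same value.

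Heyl, a related repressor known as a target of NOTCH3 in smooth muscle, was higher in the arch pool by both of its probes. On the brighter probe the log2 level was 10.91 in the arch and 10.52 in the thoracic pool on array 1, and 10.97 and 10.41 on array 2. The mean ratio of that probe was 0.47 ± 0.12, or 1.39-fold, which is under the 1.5-fold limit. On the second probe the log2 levels were 8.31 and 7.67 on array 1 and 8.29 and 7.61 on array 2, and the mean ratio was 0.66 ± 0.04, or 1.58-fold. The segments did not overlap on either probe, and the probes differed by more than the SD between arrays of either one. The brighter probe stands for the gene in the counts, so Heyl is not among the genes past the limit, although its second probe is. In the scanner's own ratios the second probe stood at 0.80 with an error of 0.21 and at 0.89 with an error of 0.20, and the brighter one at 0.39 and 0.57 with errors of 0.17. Over the 12 settings the brighter probe ranged from 0.38 to 0.56 and the second from 0.50 to 0.85.

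Hey2, the third member of the family, known from arterial and heart muscle development, did not share that direction. Its log2 level was 8.42 in the arch and 8.49 in the thoracic pool on array 1, and 8.28 and 8.56 on array 2. Both arrays gave the lower level to the arch, but the size of the difference was uneven between them. The ratios of -0.07 and -0.29 gave a mean of -0.18 ± 0.15, close to the SD between arrays. The scanner's own ratios of -0.10 and -0.34 had errors of 0.18. On array 1 the value of Hey2 was thus -0.07 where that of Hey1 was 0.58, and on array 2 it was -0.29 where that of Hey1 was 0.68. Hey2 stayed below 0 in all 12 settings, from -0.29 to -0.07.

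**Figure D2:**
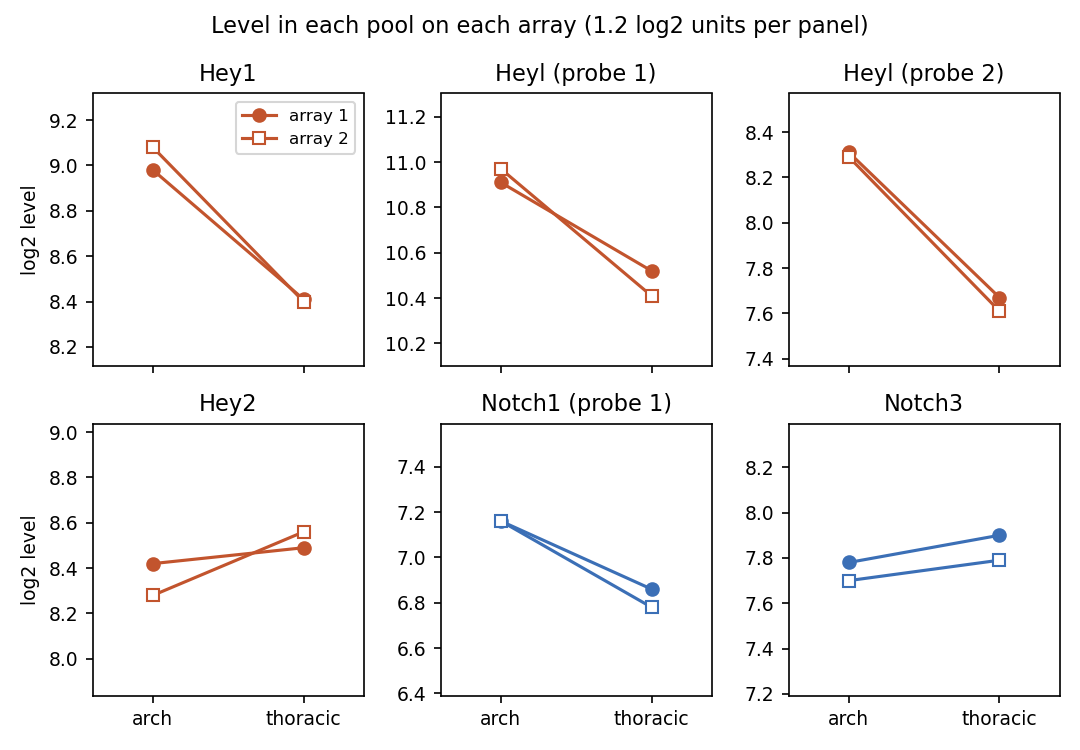
Log2 level (vertical axis) of 6 member probes in the arch and thoracic pools, with array 1 as filled circles and array 2 as open squares, and the same height of 1.2 log2 units in every panel. The lines fall from arch to thoracic on both arrays for Hey1, both Heyl probes and the brighter Notch1 probe, and rise slightly for Hey2 and Notch3; levels of different panels are not comparable, as probes differ in binding.

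A rule on the scanner's own errors, chosen after the values were seen, picked out 2 Hey genes. It asked for a scanner ratio at least 2 of its errors from 0 in the same direction on each array. Hey1 and Heyl passed it towards the arch, as did 3.38% of all genes, and 0 members passed it towards the thoracic pool, as did 1.71%. These errors cover the spots of 1 array and not the spread between mice.

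Because Notch acts on its target genes through RBPJ, the stretch before the gene start was searched for the RBPJ core, TGGGAA, and for its longer form GTGGGAA, on both strands, together with CACGTG, the E-box form that Hey and Hes proteins and many other factors of their class can bind. Every longer match also holds the core. The 250 bases before the start were read for 8 of the 10 members from RefSeq promoters of build GRCm38.p6; Hey1 and Heyl were not among them. Hey2 held 1 match to the longer form, on the opposite strand, 207 to 202 bases before the start for its core. The other 7 genes held no match to any of the 3 motifs in this window. Of 32851 promoters of the same length, 21.6% held the core, 5.42% the longer form and 6.02% the E-box. The Hey2 stretch is shown because it is the Hey gene with a sequence here and holds that match; it lies at chr10:30842784-30843033 on the minus strand and reads 5′ to 3′ along the gene, with the core match in capitals.
Hey2: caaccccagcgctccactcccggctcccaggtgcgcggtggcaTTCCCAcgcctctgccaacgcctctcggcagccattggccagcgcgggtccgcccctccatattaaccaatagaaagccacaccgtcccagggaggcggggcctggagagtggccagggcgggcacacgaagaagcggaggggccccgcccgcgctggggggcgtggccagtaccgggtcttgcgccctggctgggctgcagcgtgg
The letters are a description of the window and were not tied to the measured ratio.

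Among the receptors, Notch1 leaned towards the arch, and Notch2, Notch3 and Notch4 lay within 0.11 of 0. On the brighter Notch1 probe the log2 level was 7.16 in the arch on both arrays, and 6.86 and 6.78 in the thoracic pool. The mean ratio was 0.34 ± 0.06, or 1.26-fold, and 6.37% of all genes had a larger difference in size. The second Notch1 probe gave log2 levels of 6.71 and 6.67 on array 1 and 7.00 and 6.65 on array 2, so that nearly all of its mean of 0.20 ± 0.22 came from array 2. Both Notch1 probes pointed to the arch on both arrays, but the second was no larger than its SD between arrays. These probes are dim, with raw signals between 124 and 177 where negative control spots averaged 77.0 to 97.1, and their ratio depended on how background was handled. In the scanner's own ratios the brighter probe had a mean of 0.60, past the 1.5-fold limit, with single values of 0.50 (error 0.37) and 0.70 (error 0.29). Without background subtraction it was 0.20.

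Notch3, the receptor of arterial smooth muscle whose mutations cause the small-vessel disease CADASIL, was close to equal in both pools. Its log2 level was 7.78 in the arch and 7.90 in the thoracic pool on array 1, and 7.70 and 7.79 on array 2, a mean ratio of -0.11 ± 0.02. The arch was lower on both arrays by a small amount, and the scanner's own ratios of -0.15 and -0.14 were smaller than their errors of 0.22 and 0.19. Notch2, which is also active in smooth muscle, had log2 levels of 7.02 and 7.12 on array 1 and 6.98 and 7.10 on array 2, with a mean ratio of -0.11 ± 0.01. The arrays differed little, yet 35.5% of all genes had a larger difference, and the raw signals of 155.3 to 166.7 were as dim as those of Notch1. Notch4, the receptor known from endothelium, had log2 levels of 6.58 and 6.46 on array 1 and 6.67 and 6.63 on array 2. Its segments overlapped across arrays, and the mean ratio was 0.08 ± 0.06. In every setting Notch2 and Notch3 stayed below 0 (lowest -0.18 and -0.15) and Notch4 above it (highest 0.20).

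No ligand had the same direction on both arrays. Jag1 had log2 levels of 10.35 in the arch and 10.25 in the thoracic pool on array 1, and 10.22 and 10.27 on array 2. The segments overlapped and the mean ratio was 0.03 ± 0.10. A second, dim Jag1 probe stood at 0.10 ± 0.15, with a scanner error of 1.34 on array 1. Dll4, the Delta-like ligand of arterial endothelium, had log2 levels of 6.55 and 6.46 on array 1 and 6.59 and 6.70 on array 2, and a mean ratio of -0.01 ± 0.14. Its arch level was the higher one on array 1 and the lower one on array 2, so no direction was measured. For Jag2 the raw signals were 94.9 in the arch and 80.4 in the thoracic pool on array 1, and 81.6 and 95.3 on array 2, beside negative control means of 94.8, 77.0, 77.6 and 97.1 in the same channels, and no ratio is given.

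**Figure D3:**
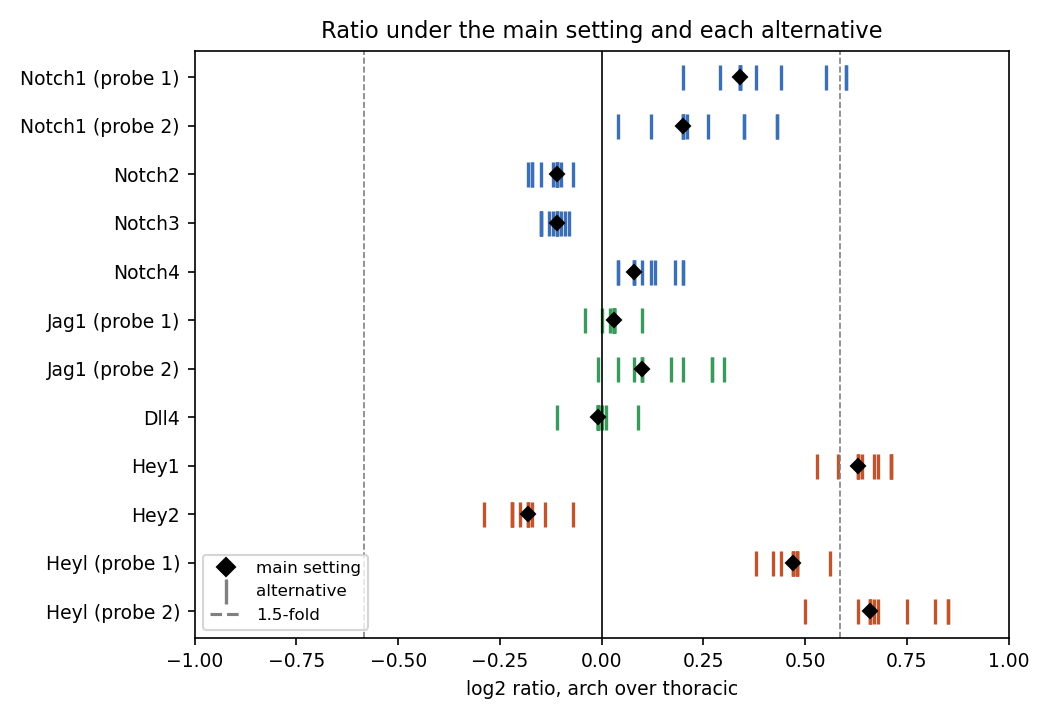
Log2 ratio of arch over thoracic for the 12 measured probes under the main setting (black diamond) and each alternative (coloured tick), with dashed lines at 1.5-fold. Hey1 and both Heyl probes stayed right of 0 and Hey2, Notch2 and Notch3 left of it in every setting, while the ticks of Dll4 and both Jag1 probes fall on both sides and those of the brighter Notch1 probe spread from 0.20 to 0.60.

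Of 46 further genes of the pathway, 45 were compared, 0 were past either size rule and their median was 0.05. By the 1.5-fold rule, 1.4% of all genes were called higher in the arch and 0.456% higher in the thoracic pool. At such shares a count of 0 among 45 genes does not set the pathway apart. Both arrays gave a value above 0 for 26 of the 45 (57.8%, beside 32.4% of all genes), below 0 for 9 and of opposite sign for 10. The highest was Dner, a membrane protein described as an atypical Notch ligand, at 0.52 ± 0.06, with a second probe at 0.50 ± 0.03. It passed the 1.5-fold limit in the scanner's own ratios (0.69) and the rule on scanner errors. Next came Adam10, the protease that makes the first ligand-dependent cut in Notch, at 0.31 ± 0.07 (second probe 0.15 ± 0.06). The lowest were Numb, an inhibitor of Notch, at -0.16 ± 0.06, although its further probes stood at 0.12 ± 0.05 and -0.02 ± 0.06, Poglut1, which adds glucose to the receptors, at -0.15 ± 0.02 (second probe not well above background), and Hes2, a repressor of the Hes family, at -0.14 ± 0.01 (second probe -0.03 ± 0.04).

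By role, medians of the further genes ranged from -0.03 to 0.17. The median was 0.17 for 5 further ligands, 0.10 for 8 genes of receptor cleavage, 0.15 for 11 nuclear partners, which include Rbpj itself at 0.17 ± 0.10, and 0.06 for 8 inhibitors and turnover genes. It was 0.03 for 5 glycosylation genes and for 3 genes of ligand ubiquitination. Some of the further ligands (raw signals of 129 to 166.9) and glycosylation genes (92.2 to 148) had dim probes, so the medians of these groups are imprecise. The 5 Hes genes, a related family in which Hes1, Hes5 and Hes7 are known Notch targets, had a median of -0.03 and ranged from -0.14 to 0.05. Hes1, the best known of them, stood at -0.10 ± 0.05, with scanner ratios of -0.05 (error 0.60) and -0.38 (error 0.41). The probes of Hes1, Hes5 and Hes7 were dim, with raw signals between 88.9 and 153 where negative controls averaged 77.0 to 97.1. Small differences in these 3 genes could not be resolved. Hey1 (0.63) and Heyl (0.47) lay above the highest Hes gene. Hey2 (-0.18 ± 0.15) was not set apart from the lowest, Hes2 (-0.14 ± 0.01). On array 1 Hey2 was the higher of these, at -0.07 beside -0.15, and on array 2 the lower, at -0.29 beside -0.14. Nrarp, a feedback inhibitor and Notch target, was not well above background in either pool on either array, and no ratio is given.

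Several cell types that carry Notch genes differed in their marker genes between the pools, and in pooled tissue more cells of a type and more RNA per cell cannot be told apart. Of 20 endothelial markers, 4 were past the 1.5-fold limit, all towards the arch, with a median of 0.31 and a range from 0.05 (Tie1) to 1.24 (Kdr). All 20 were flagged well above background in both pools despite the detergent, although Tie1 (raw signals of 90.2 to 107.2) lay close to the negative controls. Some further markers were dim as well, with raw signals from 111.2 to 143.1 and ratios from 0.09 to 0.18. Their summed level was 5606 to 5663 in the arch and 4082 to 4140 in the thoracic pool on a linear scale. These sums include the offset of 50 for each gene, which narrows the contrast. Notch4 (0.08) and Dll4 (-0.01), which are known from the same cells, differed little, but on dim probes with raw signals of 109.7 to 138. The offset narrows such ratios, and with no offset Notch4 stood at 0.18 while Dll4 stayed at -0.01. Scanner errors on arrays 1 and 2 were 0.69 and 0.40 for Notch4 and 0.75 and 0.40 for Dll4. Those of Kdr, whose raw signals were 266.1 to 712, were 0.21 and 0.20. The Notch4 and Dll4 ratios are thus less precise, which limits a comparison of size with Kdr. Hey1, which endothelium also expresses, was at 0.63 on a brighter probe (342.4 to 635.7). All 12 smooth muscle markers were well above background in both pools. The brightest probes of Acta2, Tagln and Myl9 were saturated and their ratios are not used; of the other 9 genes 0 passed, with a median of 0.12 that turned to -0.05 without loess. Of 6 pericyte markers, Abcc9 (0.64) passed towards the arch and Rgs5 (-0.70) towards the thoracic pool. The medians were 0.69 for 10 heart muscle markers (5 past the limit, from Ryr2 at -0.14 to Myl7 at 3.65), 0.17 for 12 macrophage markers (4 past the limit, from Cd14 at -0.14 to Gpnmb at 2.34) and 1.43 for 6 mesothelial markers, of which all 6 passed towards the arch. The part of these cell types in the Hey1, Heyl and Notch1 ratios was not tested.

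**Figure D4:**
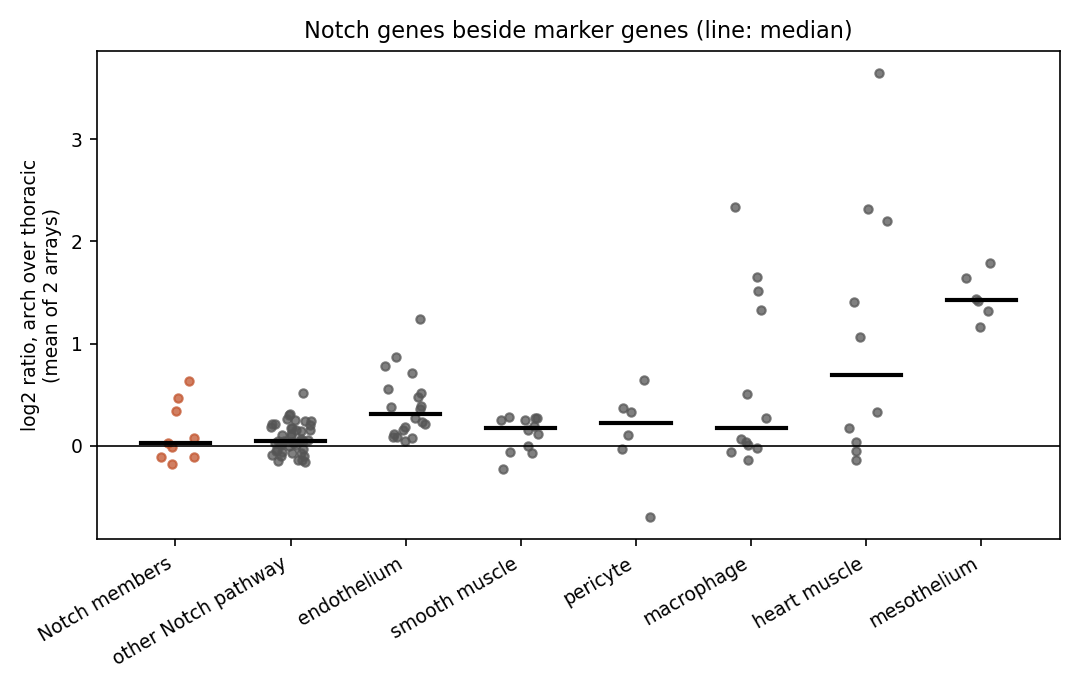
Log2 ratio of arch over thoracic (vertical axis, mean of 2 arrays) of the 9 Notch genes compared, 45 further pathway genes and the marker genes of 6 cell types, 1 point per gene and a line at each median; 3 of the 12 smooth muscle points come from saturated probes. The Notch genes centre on 0.03 with Hey1, Heyl and Notch1 above, and the endothelial, heart muscle and mesothelial medians lie at 0.31, 0.69 and 1.43.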

How the data were processed

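Dye was incorporated into cDNA made from in vitro transcribed RNA, per the labels' protocols. Intensity values of each spot (mean signal and local background) were read from the deposited scanner output. Per the file headers, its software was Agilent Feature Extraction 8.1.1.1; version 9.1.1.1 is the one in the submitters' processing notes. The deposited log ratio and its error are on a log10 scale and come from background-subtracted, dye-normalized processed signals, per the file headers; they are printed here in log2 units. The deposited table of the whole series also holds log10 ratios (column medians of 0; correlations of 1.00 with the scanner's ratio turned to arch over thoracic), so its scale and direction are settled. A genome build for the probes was not given in the sources used here. Probe positions and sequences were not used.

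With limma 3.58.1 in R 4.3.3, mean signals were corrected by normexp (offset 50), which narrows the ratios of dim probes, and normalized by loess within arrays, with control spots at weight 0. Outlier spots (8 and 5) were left out, array 1 was turned, and arrays were averaged. Levels were put on 1 scale by Aquantile. A probe counted as measured if 1 RNA was well above background on both arrays (32183 probes); where a gene had several, its brightest one was used. Gene spots well above background made up 76.5% to 82.6% per channel.

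Symbols of genes other than the members came from RefSeq (GRCm38.p6): 21445 probes by accession, 5431 by symbol and 4636 by synonym, and 9662 kept the file's name. All members are named, as are the 3 highest and 3 lowest further pathway genes, except 1 that is not reported here; of the marker genes, which a fixed rule would name 2 at each end, the outermost or those past a limit are given. No gene is named for likeness of pattern, since there is 1 comparison. Members and lists were chosen with earlier results of these data known. Steps were tested on simulated arrays. In all, 12 alternatives were run.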

Additional observations from a re-analysis of the deposited data

How the results depend on the processing

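No member passed the 2-fold rule in any of the 13 settings, and the members' median, 0.03 in the main setting, ranged from -0.04 (without array 1) to 0.10 (without array 2). Members past the 1.5-fold rule numbered 1 in the main setting, 0 without background subtraction, 2 in the scanner's own log ratio and in the deposited value table (Hey1 and Notch1), and 0 to 1 when 1 array was left out (0 without array 2). Hey1 passed the 1.5-fold rule in 11 settings, Notch1 in 2 and Heyl, by its brighter probe, in 0. The rule on scanner errors, added after seeing the data, sets no fold limit and was passed by 2 members (Hey1 and Heyl). The settings are not separate checks. Hey1 kept the main value of 0.63 when either filter on dim probes was changed and when saturated spots were left out. The scanner's ratio and the deposited table hold the same ratios (Hey1 0.71, Notch1 0.60 in both), so the 2 settings of Notch1 are 1 result. Further pathway genes past the 1.5-fold rule numbered 0 in the main setting, 1 with no offset and with plain background subtraction (Dner), and 2 in the scanner's ratio and the deposited table (Dner and Ep300). The Ep300 probe was dim, with raw signals of 115.1 to 142.3. Its scanner ratios of 0.49 and 0.70 had errors of 0.60 and 0.41. The further Ep300 probes stood at -0.01, -0.01 and 0.01 in the main setting. Over all genes, the 2-fold rule was passed by 141, against 262 with no offset, 86 without background subtraction and 309 in the scanner's ratio and the deposited table; the 1.5-fold rule by 424, against 813 with no offset and 934 in those last tables. With red over green in place of arch over thoracic, the rules were passed by 0 genes (2-fold) and 1 gene (1.5-fold). Precision is limited by the number of arrays and, for Notch1, Notch2, Notch4, Dll4, Jag2 and the second Jag1 probe, by signals close to the negative controls. The same holds for Hes1, Hes5, Hes7 and Ep300, and for some further ligands and glycosylation genes.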
